A study of Saccharomyces cerevisiae with 12 samples.

Results

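The 7 structural genes of histidine synthesis in budding yeast, HIS1 to HIS7, were followed across a rap1 temperature-sensitive (ts) mutant, an abf1 ts mutant and a separate matched wild type for each. The genes were taken by name: probe sets that name a member and no other gene were kept, and where a gene had more than 1 the probe set with the highest mean stood for it, which gave 7 genes of 5859 named genes or gene sets on the array. HIS3 had 2 such probe sets and the other members had 1 each, 8 probe sets in all. All 7 members passed the filter on low signal. Each of the 4 groups had 3 1-colour Affymetrix arrays, 12 in all. Cells had been grown at 25 C and held at 37 C for 1 h before total RNA was isolated, in the wild types as well as in the mutants. Both mutant proteins lose DNA binding at 37 C, per the design text. Every group therefore shares the heat shift, and RNA from cells kept at 25 C was not analysed here. The sources used here do not give the ts alleles, the strain background or the auxotrophic markers of the strains.

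Histidine is built from phosphoribosyl pyrophosphate (PRPP) and ATP. The enzymes act in the order His1, His4, His6, His7, His3, His5 and His2, with His4 returning for the last step, and the pathway releases AICAR, an intermediate that is recycled into purines. The HIS genes are scattered over the genome and are classic targets of Gcn4, the activator that answers amino acid starvation. HIS4 is also driven by Bas1 with Pho2, and Rap1 is known to bind its upstream region and to help these activators reach it. HIS3 lies in a much-studied region between the divergent gene MRM1, formerly PET56, and the downstream gene DED1, and mutated or deleted HIS3 alleles are common markers in laboratory strains.

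The members parted in rap1 ts. HIS4 was 3.76-fold lower and HIS1 1.58-fold lower than in the matched wild type, HIS3 was 3.12-fold higher, and HIS2, HIS5, HIS6 and HIS7 lay within 1.30-fold of it. HIS3 rose by limma without a replicate block, and HIS4 and HIS1 fell once the replicate number was used as a block. In abf1 ts the estimates of all 7 members were above the wild type, by 1.09-fold to 1.51-fold, and none passed the test with or without the block.

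**Figure D1:**
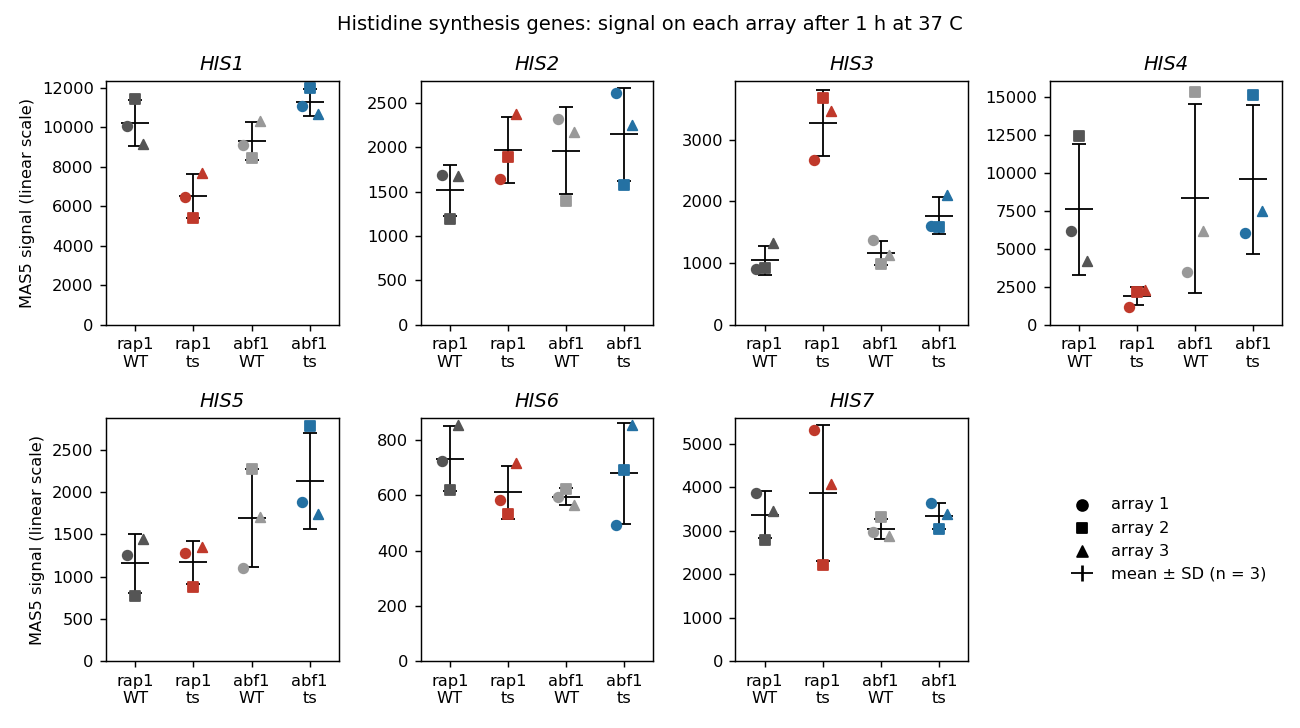
MAS5 signal (linear scale, arbitrary units) of each histidine synthesis gene on each array, by group, where WT is wild type, ts is the temperature-sensitive mutant, symbols mark the replicate number and bars show the mean ± SD of 3 arrays. HIS4 and HIS1 are low and HIS3 is high on the 3 rap1 ts arrays, and none of these 3 sets overlaps its wild type.

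Signals are MAS5 probe set intensity values that the authors had scaled to a common mean per array. They compare 1 gene between arrays and do not compare genes with each other. Fold changes are differences of log2(signal + 13), and calls were made at a limma adjusted p under 0.05 over the 4687 features tested. Median signals of the arrays ran from 390.4 to 598.3, and the second array of the rap1 wild type had both the lowest median and the highest 98th percentile, 19399. The 3' to 5' signal ratio of the ACT1 control, a sign of RNA integrity or label length, was 18.2, 6.58 and 2.56 on the rap1 wild-type arrays and 48.4, 20.1 and 28 on the rap1 ts arrays (2-sided exact permutation p = 0.1, the smallest possible for 3 against 3). For the abf1 wild type it was 8.73, 11.4 and 17.4, and for abf1 ts 32.7, 3.47 and 4.41 (exact p = 0.6). From the rap1 wild type to rap1 ts the geometric mean ratio went from 4.98 to 15.9 for the SPT15 control and from 46.4 to 228 for SRB4 (2-sided exact permutation p = 0.1 and 0.2). From the abf1 wild type to abf1 ts it went from 5.70 to 6.46 and from 177 to 123. The part of these ratios in the rap1 results was not tested. Separate cultures are not stated for the arrays of a group, so the p-values speak of the spread among these arrays alone, part of which may be technical.

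HIS1 encodes the enzyme of the first step, ATP phosphoribosyltransferase, which histidine inhibits. Its signals were 10084, 11448 and 9141 on the rap1 wild-type arrays and 6482, 5413 and 7665 on the rap1 ts arrays. All 3 mutant values lay below all 3 wild-type values, with group means of 10224 ± 1160 and 6520 ± 1126 (SD, n = 3). The log2 fold change was -0.66 (SE 0.19, limma adjusted p = 0.114 without a block). With the replicate block the adjusted p was 0.0323, and HIS1 was lower in 3 of 3 pairs (log2 differences of -0.64, -1.08 and -0.25). Leaving out any one replicate number from the blocked fit ended the call, with limma adjusted p of 0.115, 0.142 and 0.0688 without number 1, 2 and 3.

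HIS4 encodes a protein with several activities that catalyses early steps of the pathway and the last one, histidinol dehydrogenase. On the rap1 wild-type arrays its signals were 6142, 12439 and 4203, and on the rap1 ts arrays 1195, 2153 and 2314. The highest mutant value was below the lowest wild-type value, and the wild-type arrays differed widely among themselves. The means were 7595 ± 4306 and 1887 ± 605 (SD, n = 3). The log2 fold change was -1.91 with a 95% interval from -3.07 to -0.75 (SE 0.54, limma adjusted p = 0.113), the 32nd lowest of the 4687 features. With the replicate block the SE was 0.30 and HIS4 fell (limma adjusted p = 0.00589). It was lower in 3 of 3 pairs (log2 differences of -2.35, -2.52 and -0.86). The blocked call held without replicate number 1, 2 or 3 (limma adjusted p = 0.0434, 0.00382 and 0.0172), also without number 2, which holds the wild-type array of lowest median signal.

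HIS4 had the highest coefficient of variation of the members in 3 of the 4 groups, 56.7% in the rap1 wild type, 74.6% in the abf1 wild type and 51.0% in abf1 ts. In rap1 ts it was 32.1%, and HIS7 had 40.5%. The HIS4 signals on the 12 arrays ran from 1195 to 15320, a 12.8-fold range that includes the low level in rap1 ts, against 1.74-fold for HIS6 to 4.05-fold for HIS3. Array 2 carried the highest HIS4 signal in 3 of the 4 groups, with 12439 in the rap1 wild type, 15320 in the abf1 wild type and 15133 in abf1 ts. In the same 3 groups array 2 carried the lowest HIS2 signal. There it also had the lowest median signal of its group (390.4, 493.6 and 479.3) and the highest 98th percentile (19399, 14738 and 14934). The part of this array-wide spread in the HIS4 and HIS2 signals was not tested.

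**Figure D2:**
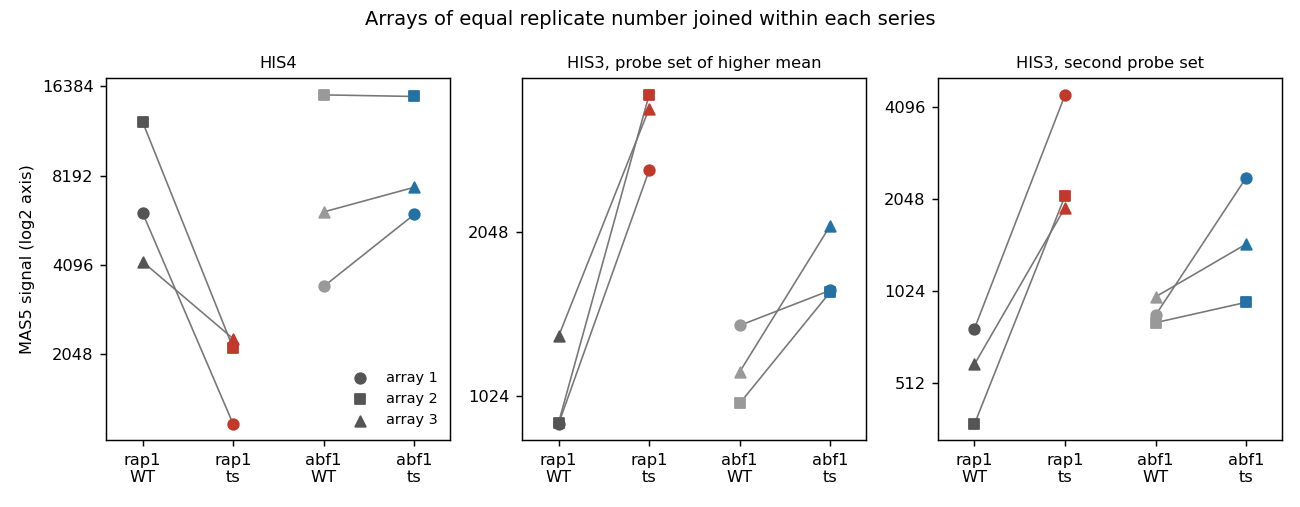
MAS5 signal (log2 axis) of HIS4 and of both HIS3 probe sets on each array, with lines joining arrays of equal replicate number in a series. All 3 rap1 lines go down for HIS4 and up for HIS3 on both probe sets, while the abf1 line of array 2 lies above the other two for HIS4.

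HIS6 encodes the isomerase that follows the early His4 steps. Its signals were 723.4, 621.1 and 855.5 in the rap1 wild type and 585.1, 532.9 and 718.7 in rap1 ts, so the groups overlapped although each pair was lower in the mutant. The log2 fold change was -0.25 (95% interval -0.85 to 0.35, limma adjusted p = 0.598, and 0.430 with the block). HIS7 encodes imidazole glycerol phosphate synthase, the step that releases AICAR. It read 3858, 2796 and 3460 in the rap1 wild type and 5317, 2205 and 4081 in the mutant. The mutant arrays spread beyond the wild-type arrays on both sides, and the log2 fold change was 0.12 (95% interval -0.50 to 0.74, limma adjusted p = 0.830).

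HIS3 encodes imidazoleglycerol-phosphate dehydratase, the enzyme after His7. Its signals were 907.8, 912.1 and 1317 on the rap1 wild-type arrays and 2666, 3675 and 3466 on the rap1 ts arrays. The lowest mutant value was above the highest wild-type value, with means of 1046 ± 235 and 3269 ± 532 (SD, n = 3). The log2 fold change was 1.64 (95% interval 1.09 to 2.20, limma adjusted p = 0.0147, and 0.00339 with the block), the 20th highest of the 4687 features. The 3 pairs had log2 differences of 1.54, 2.0 and 1.39. HIS3 was called in 18 of 22 other settings. It was lost on the 6 rap1 arrays alone (limma adjusted p = 0.0927) and in 3 fits that left out 1 array: the first wild-type array (0.0758), the second (0.0678) or the third rap1 ts array (0.0575).

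The second HIS3 probe set gave the same direction. It read 772.1, 376.9 and 590.3 in the rap1 wild type and 4472, 2093 and 1917 in rap1 ts, again without overlap. The log2 fold change was 2.21 (SE 0.40, limma adjusted p = 0.0322). Within rap1 ts the probe sets ordered the arrays differently: array 1 was the highest by far on the second probe set and the lowest on the first. That array also had the highest ACT1 ratio of the 12, 48.4, and the highest 3' to 5' ratio of the SPT15 control, 56.9. In abf1 ts the array with the highest ACT1 ratio, 32.7, likewise had the highest signal of the second probe set, 2401 against 940.7 and 1458. The same held in both wild types, for array 1 of the rap1 wild type (ratio 18.2, signal 772.1) and array 3 of the abf1 wild type (17.4 and 980.2). The part of these ratios in the size of the second probe set's change was not tested, and the sources used here do not give what each probe set covers, HIS3 itself or a neighbouring reading frame. Either probe set stands for HIS3 by the platform annotation alone.

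HIS5 encodes histidinol-phosphate aminotransferase. Its signals were 1253, 770.9 and 1446 in the rap1 wild type and 1279, 874.3 and 1353 in rap1 ts, nearly the same array by array. The log2 fold change was 0.04 (95% interval -0.70 to 0.77, limma adjusted p = 0.960), and its sign changed under other scalings. HIS2 encodes histidinol-phosphatase, the step before the last. It read 1684, 1188 and 1681 in the wild type and 1646, 1896 and 2381 in rap1 ts, which overlap at their edge, with a log2 fold change of 0.38 (95% interval -0.25 to 1.00, limma adjusted p = 0.442).

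By limma without a block, 1 of 7 members was called in rap1 ts, against a background of 0.405% of all features (0.0427% higher and 0.363% lower). At an unadjusted p under 0.05 there were 3, against 22.3% of all features. With the replicate block 3 of 7 were called (HIS3, HIS4 and HIS1), against a background of 25.0% of all features. The groups did not overlap for 3 of 7 members and for 26.5% of all features. The median log2 fold change of the members was 0.04 and that of all features 0.09, with 4 members above 0 and 3 below.

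**Figure D3:**
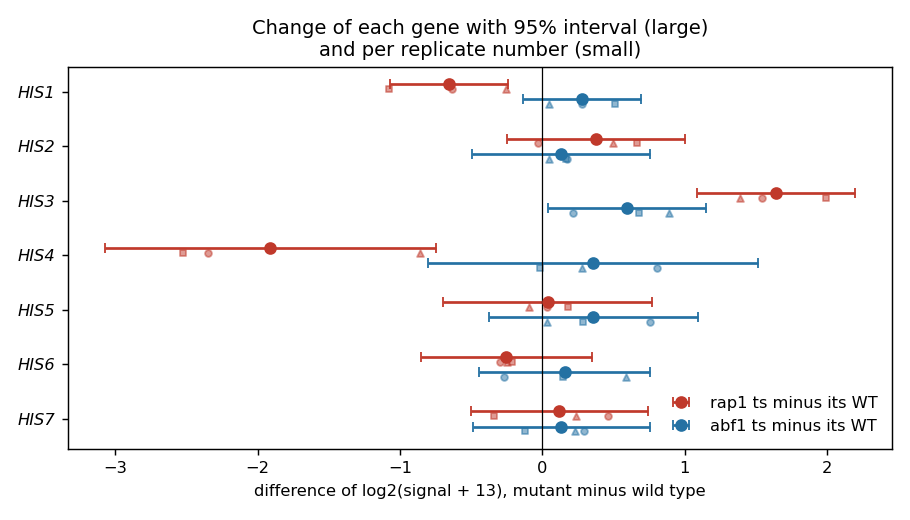
Difference of log2(signal + 13), mutant minus matched wild type (WT), for each histidine synthesis gene, with large points for the mean over 3 arrays a group, bars for the 95% interval of limma without a block, and small symbols for each replicate number. In rap1 ts the intervals of HIS1 and HIS4 lie below 0 and that of HIS3 above 0, and in abf1 ts the estimates are all above 0 with the HIS3 interval alone clear of it, before adjustment over all features. HIS3 is shown by its probe set of higher mean, and on its second probe set the abf1 ts interval includes 0.

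In abf1 ts no member passed, by limma without a block (0 of 7, background 0.0427% of all features) or with it (0 of 7, background 0.213%). At an unadjusted p under 0.05 there was 1, HIS3 on its chosen probe set, against 3.09% of all features. All 7 members were above 0, with a median log2 fold change of 0.28, where the median of all features was -0.03 and 45.5% of them were above 0. HIS3 read 1380, 990.8 and 1133 in the abf1 wild type and 1602, 1590 and 2109 in abf1 ts. These groups did not overlap, and the log2 fold change was 0.59 (SE 0.26, limma adjusted p = 1.00, and 0.464 with the block). HIS1 read 9120, 8426 and 10325 against 11088, 12007 and 10658 in the mutant. Like HIS3 on its chosen probe set, HIS1 was higher in 3 of 3 pairs without overlap, by a smaller amount (log2 fold change 0.28, limma adjusted p = 1.00). For 2 of 7 members on the chosen probe sets, both higher, the groups did not overlap, against 7.62% of all features (2.28% higher).

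For HIS4 the abf1 wild-type arrays read 3469, 15320 and 6182 and the abf1 ts arrays 6063, 15133 and 7485. Array 2 was the highest in both groups, the groups overlapped widely, and the log2 fold change was 0.35 with a 95% interval from -0.81 to 1.51 (limma adjusted p = 1.00, and 0.942 with the block). HIS5 read 1108, 2273 and 1699 in the wild type and 1880, 2776 and 1738 in abf1 ts (log2 fold change 0.36, limma adjusted p = 1.00). HIS2, HIS6 and HIS7 had log2 fold changes of 0.13, 0.16 and 0.13 there, each with an interval that included 0.

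Whether the mutants differed in their effect was tested directly. For HIS4 the effect in rap1 ts minus that in abf1 ts was -2.26 on the log2 scale (SE 0.76, limma adjusted p = 0.336 without a block). With the replicate block it passed (blocked SE 0.42, limma adjusted p = 0.0235), and it did not pass in the blocked fit without replicate number 1 or 3 (limma adjusted p = 0.0819 and 0.147). The difference was 1.05 for HIS3 and -0.94 for HIS1, with limma adjusted p of 0.339 and 0.255 without a block and 0.0550 and 0.0546 with it. On the second HIS3 probe set it was 1.46 and passed with the block (limma adjusted p = 0.0471, and 0.371 without it). The blocked outcome for HIS3 thus depended on the probe set. Without a block 0 of 7 members and 0% of features passed by limma, and 3 members had an unadjusted p under 0.05, against 12.7% of features. With the block 1 of 7 passed on the chosen probe sets, against a background of 9.09%. For HIS2, HIS5, HIS6 and HIS7 the differences lay between -0.41 and 0.25.

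No member was called between the wild types of the series. HIS3, which could have differed by strain genotype, had means of 1046 ± 235 in the rap1 wild type and 1168 ± 197 in the abf1 wild type (SD, n = 3), and the arrays overlapped. The log2 difference was -0.17 with a 95% interval from -0.72 to 0.39. On the second probe set the groups did not overlap: 772.1, 376.9 and 590.3 in the rap1 wild type lay below 854.9, 807.1 and 980.2 in the abf1 wild type. The log2 difference there was -0.65, with an interval from -1.52 to 0.23 (limma adjusted p = 0.965). HIS4 had means of 7595 and 8324, a log2 difference of -0.01 with an interval from -1.17 to 1.15. The interval of HIS4 therefore includes changes of more than 2-fold either way. With the 1 probe set chosen per gene, the widest estimate was that of HIS5, -0.53. None of the 7 members and 0% of features were called by limma in this comparison, 0 members had an unadjusted p under 0.05 (3.33% of features did), and the groups overlapped for all 7 members on the chosen probe sets, where 9.22% of features had groups apart.

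Set side by side, the levels of HIS4 ran from abf1 ts (9560 ± 4878) through the abf1 wild type (8324 ± 6209) and the rap1 wild type (7595 ± 4306) to rap1 ts (1887 ± 605). Neighbours in that order overlapped, except that rap1 ts stood apart. For HIS3 the order was rap1 ts (3269 ± 532), abf1 ts (1767 ± 296), the abf1 wild type (1168 ± 197) and the rap1 wild type (1046 ± 235). In that order the wild types overlapped and the other neighbours did not, on the chosen probe set. The second probe set gave the same order of means (2828, 1600, 880.7 and 579.8). There the wild types stood apart and the other neighbours overlapped. HIS1 ran from abf1 ts (11251 ± 689) through the rap1 wild type (10224 ± 1160) and the abf1 wild type (9290 ± 961) to rap1 ts (6520 ± 1126), and again rap1 ts stood apart.

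Compared directly, rap1 ts had 4.84-fold less HIS4 than abf1 ts (log2 difference -2.28, SE 0.54, limma adjusted p = 0.0562), 1.74-fold less HIS1 (limma adjusted p = 0.0593) and 1.84-fold more HIS3 (limma adjusted p = 0.116). HIS5 was 1.81-fold lower (limma adjusted p = 0.272). The groups did not overlap for these 4 of 7 members on the chosen probe sets, against 17.6% of all features. On the second HIS3 probe set they overlapped, with a log2 difference of 0.81 (limma adjusted p = 0.365). For HIS5 the wild types differed in the same direction (log2 difference -0.53). Its difference of mutant effects was -0.32 (limma adjusted p = 0.780 without a block). By limma without a block 0 of 7 members were called, against a background of 1.60%, while 4 had an unadjusted p under 0.05, against 14.7% of features. With a replicate block shared by all arrays HIS4, HIS1 and HIS3 were called (limma adjusted p = 0.00325, 0.0215 and 0.0310), 3 of 7 against 9.32% of features. The labels do not state that replicate numbers are shared between the series.

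GCN4 and BAS1, which encode the activators of the pathway, did not pass in either mutant. GCN4 had 19267 ± 5971 in the rap1 wild type and 13530 ± 861 in rap1 ts (log2 fold change -0.47, limma adjusted p = 0.226, and 0.0692 with the block), and Gcn4 is known to be controlled mainly in translation, which RNA levels do not show. BAS1 had log2 fold changes of 0.52 in rap1 ts and -0.56 in abf1 ts (limma adjusted p = 0.477 and 1.00). RAP1 itself had -0.12 in rap1 ts, and ABF1 had 1.61 in abf1 ts (limma adjusted p = 0.842 and 1.00). This ABF1 estimate was the 2nd highest of the 4687 features in abf1 ts. The means were 3176 in abf1 ts and 1009 in its wild type, without overlap, and ABF1 was higher in 3 of 3 pairs. With the block its limma adjusted p was 0.102. Of the 9 regulator genes 8 were tested, since PHO2 lay under the filter. In rap1 ts none was called without the block, and with it GCN1, whose product helps to activate the kinase upstream of Gcn4, rose (log2 fold change 0.62, limma adjusted p = 0.0193). GCN1 was not called with the block shared by all arrays (limma adjusted p = 0.0688). With the block within the series 25.0% of all features were called in either direction, and 701 of the 4687 rose.

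**Figure D4:**
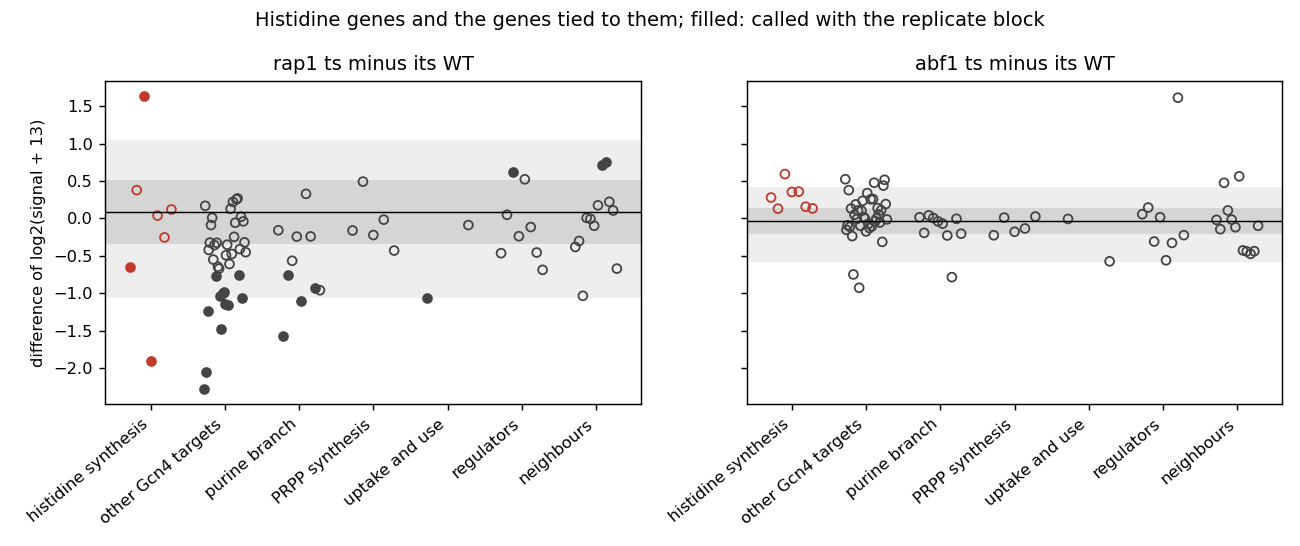
Difference of log2(signal + 13), mutant minus matched wild type (WT), for each tested gene of 7 lists (left, rap1 ts; right, abf1 ts), with filled points for genes called by limma with the replicate block, the line for the median of all features, dark grey for their 25th to 75th and light grey for their 5th to 95th percentile. In rap1 ts the histidine genes lie on both sides while 30 of 37 other Gcn4 targets are below 0, and in abf1 ts no point is filled.

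Other Gcn4 targets among the amino acid synthesis genes were mostly lower in rap1 ts. Of 40 listed genes 38 were named on the array and 37 were tested. The median log2 fold change was -0.45 and 30 of 37 were below 0, compared with 44.1% of all features. By limma without a block 1 gene fell, ARG1 of arginine synthesis (log2 fold change -2.28, limma adjusted p = 0.0206), and 0 rose. With the block 12 fell and 0 rose, where 25.0% of all features were called in either direction and 470 of 4687 fell. The largest falls after ARG1 were those of ARG3 (-2.05), the acetolactate synthase gene ILV2 (-1.48) and ARG4 (-1.25). In abf1 ts the median was 0.02, with 18 of 37 below 0 and 0 called in either fit. HIS4, HIS1 and HIS6 (-0.25) thus had the sign of most of this list in rap1 ts. HIS3 had the opposite one, as did HIS2, HIS5 and HIS7 with smaller estimates (0.38, 0.04 and 0.12).

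The genes that link histidine to purines were measured too. Of 10 tested genes of the purine branch and AICAR recycling, 9 were below 0 in rap1 ts, with a median of -0.66. None was called without the block (limma, 0 of 10) and 4 fell with it. With this block 470 of the 4687 features fell. ADE17, which encodes 1 of the isozymes that recycle AICAR, fell with the block by 1.58 (limma adjusted p = 0.0130), ADE2 by 1.11, ADE12 by 0.93 and ADE3 by 0.76. The gene of the other isozyme, ADE16, had a log2 fold change of -0.16 (limma adjusted p = 0.725, and 0.626 with the block) and was higher in 2 of 3 pairs. In abf1 ts their median was -0.05, and 0 were called in either fit. The 5 PRPP synthetase genes PRS1 to PRS5 had log2 fold changes between -0.43 and 0.49 in rap1 ts, and none passed in either fit.

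HIP1, the gene of the high-affinity histidine permease, was lower in rap1 ts. Its mean signal was 1518 ± 589 in rap1 ts against 3055 ± 583 in its wild type, without overlap, and it fell with the block (log2 fold change -1.06, limma adjusted p = 0.0212, and 0.116 without the block). HTS1, which encodes histidyl-tRNA synthetase, had log2 fold changes of -0.09 in rap1 ts and -0.57 in abf1 ts (limma adjusted p = 0.842 and 1.00, and 0.754 and 0.369 with the block).

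The tested chromosomal neighbours of HIS3 and HIS4 had estimates near 0 in rap1 ts and were not called. MRM1, on the other side of the HIS3 upstream region and encoding a mitochondrial rRNA methyltransferase, had means of 1866 ± 476 in the rap1 wild type and 1844 ± 257 in rap1 ts. Its log2 fold change was 0.01 (95% interval -0.73 to 0.75, limma adjusted p = 0.993), and the arrays overlapped. The probe set naming DED1, an RNA helicase gene, lay under the filter, with means of 128 ± 103 in the rap1 wild type and 105 ± 55.5 in rap1 ts, and was not tested. DED1 is known as an abundant transcript, so the annotation of this dim probe set is in doubt and its value may not be that of DED1. BIK1, a microtubule-associated protein gene beside HIS4, had a log2 fold change of -0.10 (limma adjusted p = 0.906) and RRP7, a ribosome biogenesis gene on the other side, -0.01 (limma adjusted p = 0.993). Of 12 tested neighbours of the members, 0 were called by limma without the block in rap1 ts and 2 rose with it, RPB3 (0.75) beside HIS6 and NUP159 (0.71) beside HIS5, where 701 of the 4687 features rose. Neither was called with the block shared by all arrays (limma adjusted p = 0.0520 and 0.0837).

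Features were ranked by likeness to HIS3 and to HIS4, by Pearson correlation of log2 values over the 12 arrays among 4536 other single genes. The most like HIS4 were SEC22, a vesicle SNARE gene (r = 0.97), the nicotinic acid permease gene TNA1 (0.95), HOM2 of threonine and methionine synthesis (0.94), the aromatic aminotransferase gene ARO8 (0.94) and the alcohol dehydrogenase gene ADH5 (0.93). The most like HIS3 were APL6, a subunit gene of the AP-3 adaptor (r = 0.95), MFM1 (0.89), UBX3 (0.87), the dynactin gene NIP100 (0.86) and VHC1 (0.84). These arrays share their groups and their replicate numbers, and the ranking is a description. HOM2 was the 1 of these 10 genes on the list of other Gcn4 targets, and it fell in rap1 ts with the block (log2 fold change -1.07, limma adjusted p = 0.00589).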

How the data were processed

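The deposited values are linear MAS5 probe set intensity values, made by the authors per the submitters' processing notes. The sources used here give no MAS5 version, setting or detection call. Trimmed means (2% off each end) lay between 1500.7 and 1501.3 on all 12 arrays, so the authors had scaled the intensity values to a common mean. Array numbers limit the precision. Arrays shared at most 36 identical values.

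Features were probe sets joined by gene symbol from the platform annotation. Those under the 20th percentile of mean log2 (8.16) were left out, which left 4687 of 5859. limma 3.58.1 in R 4.3.3 fitted 4 group means to log2(signal + 13), 13 being the 10th percentile, with an intensity trend. Benjamini-Hochberg adjustment was over all features. The fit was tested on simulated data with arrays drawn independently, so correlation of same-numbered arrays was not part of that test. Equal replicate numbers were used as a block within each series because deviations from group means correlated between same-numbered arrays in all 6 pairs (r from 0.25 to 0.82); the labels do not state a pairing. Between the ts groups r ran from 0.36 to 0.60, and between the wild types from 0.05 to 0.53. The lowest, for number 1, was under the 0.11 of a differently numbered pair of wild-type arrays. Named genes outside the members were those called in either fit, up to 4 per list and direction, and GCN4, BAS1, RAP1, ABF1, HIP1, HTS1, MRM1, DED1 and BIK1 in any case; the 5 genes most like HIS3 and HIS4 were named too, and ADE16, RRP7, URA3, TRP1 and LYS2 were added after their values were seen. Members and lists were chosen with earlier results of these data known. Gene order came from assembly R64, and no coordinates are given. Planned promoter motif searches were not run. Alternatives were other scalings, offsets, filters, probe set joins and fits, and each array left out in turn.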

Additional observations from a re-analysis of the deposited data

Results flagged for a closer look

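HIS4 differed between the mutants in the test of the difference of their effects: -2.26 on the log2 scale (rap1 ts effect minus abf1 ts effect), with a limma adjusted p of 0.0235 with the replicate block and 0.336 without it. It was lower in 3 of 3 pairs of the rap1 series, while the abf1 pairs had 0.80, -0.02 and 0.28.

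The second HIS3 probe set, which the choice of 1 probe set a gene leaves unused, had a mean signal of 2828 in rap1 ts, above the 579.8 of its wild type and without overlap (limma adjusted p = 0.0322 when it stood for the gene). The spread in rap1 ts, 1427 (SD, n = 3), rested mostly on array 1, at 4472.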

How the results depend on the processing

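Of 700 recomputed values of the 7 members in 5 comparisons, 644 kept their direction and their side of the threshold, 4 lost a call (all HIS3 in rap1 ts), 17 gained one (HIS1, HIS3 or HIS4) and 35 changed sign. Features called in rap1 ts against its wild type, 19 without a block, were 30 with quantile scaling, 31 with median centring, 3 on the 6 arrays of the series alone, 1171 with the replicate block within the series, 940 with the block shared by all arrays and 549, 837 and 172 with the block and without replicate number 1, 2 and 3. Members called there, 1 without a block, were 0 on the 6 arrays alone, 3 with either block and 2 in each blocked fit without a number. In abf1 ts, 2 features without a block became 0 with median centring, with centring outside ribosomal protein and glycolysis genes and on 6 arrays, 10 with either block, and 0, 70 and 0 in the blocked fits without number 1, 2 and 3. For the difference of effects, 0 became 4 with quantile scaling, 1 with median centring, 4 with centring outside those genes, 426 and 273 with the 2 blocks, and 257 and 1 in the blocked fits without number 2 and 3. Members called for it were 1 with either block and in the blocked fit without number 2. Between rap1 ts and abf1 ts, 75 became 437 with the shared block. Members called were 2 with quantile scaling and with the 50th percentile filter, and 3 with the shared block. Leaving out 1 array gave 6 to 24 features in rap1 ts (6 and 8 without the first and the second wild-type array, 9 and 10 without the first and the third ts array), 0 to 10 in abf1 ts, 0 to 3 for the difference and 9 to 57 between the mutants (9 without abf1 ts array 3). Members called without 1 array were 0 to 1 in rap1 ts and 0 elsewhere.

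Signs changed only for values that no fit called. In rap1 ts HIS5 was -0.11, -0.050 and -0.11 under quantile, median and outside centring and -0.033 with the block without number 2. HIS7 was -0.027 under outside centring and -0.052 with the block without number 1. In abf1 ts HIS6 was -0.061 with the block without number 3, and the difference for HIS7 was 0.088 with the block without number 2. Between the wild types HIS3 was 0.00033 with quantile scaling and 0.017 with outside centring, and HIS4 0.10 with median and 0.17 with outside centring. Without 1 array, HIS5 ran from -0.23 to 0.23 and HIS7 from -0.16 to 0.48 in rap1 ts. In abf1 ts HIS2 ran from -0.10 to 0.34, HIS4 from -0.14 to 0.93 and HIS6 from -0.024 to 0.37. The difference for HIS7 ran from -0.29 to 0.34 and HIS4 between the wild types from -0.51 to 0.56. Between the mutants HIS2 ran from -0.31 to 0.050, HIS6 from -0.34 to 0.056 and HIS7 from -0.15 to 0.48. The causes of these changes were not tested. HIS6 has no value under the 50th percentile filter. Fits without 1 array use the spread of all groups.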

Other observations

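HIS3 was set beside other genes that often serve as auxotrophic or drug markers. In rap1 ts HIS3 was higher while LEU2 (log2 fold change -0.95), ADE2 (-1.11), the sulfhydrylase gene MET17 (-1.69) and the arginine permease gene CAN1 (-1.61) fell with the replicate block (limma adjusted p = 0.0121, 0.0174, 0.0102 and 0.0113). With this block 25.0% of all features were called in either direction. None of these 4 was called without the block (limma adjusted p from 0.110 to 0.167). URA3, TRP1 and LYS2 had -0.39, 0.04 and 0.13 and were called in neither fit. In abf1 ts LEU2 had a mean signal of 14096 ± 726 against 8905 ± 2883 in the wild type (SD, n = 3), without overlap and without passing the test (log2 fold change 0.71, limma adjusted p = 1.00, and 0.259 with the block).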
